A study of Mus musculus with 6 samples.

Results

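The genes described here encode the subunits of the respiratory chain that are made from nuclear genes. They were taken from the table of all genes by symbol (names beginning Ndufa, Ndufb, Ndufc, Ndufs or Ndufv with a number, Sdha to Sdhd, names beginning Uqcr, Cox4 to Cox8 or Atp5, and Cyc1 and Cycs), which gave 86 of 23359 gene symbols. The study concerns GAB2, a docking protein that carries signals from receptors and kinases, and its part in transformation by the leukaemia oncogene BCR-ABL1. Polyadenylated RNA of mouse bone marrow was sequenced from 3 libraries of GAB2 WT genotype (Gab2+/+, WT A, B and C) and 3 of GAB2 NULL genotype (Gab2-/-, NULL A, B and C). The labels give no strain, age, treatment, culture step or animal for any library, and do not say whether BCR-ABL1 was present in the cells. The p-values below therefore measure only the spread between these libraries, which may be technical.

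The respiratory chain of the inner mitochondrial membrane passes electrons from NADH through complex I, and from succinate through complex II, to complex III, then by the small carrier cytochrome c to complex IV, which reduces oxygen. Complexes I, III and IV pump protons as they do so, and the ATP synthase, complex V, uses the resulting gradient to make ATP. Most of the subunits are encoded in the nucleus and imported, while a small set of core subunits comes from the mitochondrial genome. Genes on the mitochondrial genome were not analysed here.

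Values are FPKM, numbers of fragments corrected for the length of the transcript and the size of the library, so levels of different genes are compared per length. A gene was tested where its mean over the 6 libraries was at least 1 FPKM, which held for 9916 genes. It was called where its change on the log2(FPKM + 1) scale, NULL minus WT, had a Benjamini-Hochberg adjusted p under 0.05 by limma. Gab2 read 3.33, 3.10 and 2.43 FPKM in the WT libraries and 0.123, 0.145 and 0.203 FPKM in the NULL libraries, a log2 change of -1.77 (exact permutation test of FPKM, two-sided p = 0.1, the smallest that 3 against 3 allows), so the labels and the targeted gene matched in all 6. Estimated depth lay between 17.94 and 68.56 M fragments, and the 9 B lineage markers (Cd79a, Cd79b, Vpreb1 and others) averaged 1 FPKM or more over the 6 libraries while no T and NK, neutrophil, erythroid, megakaryocyte or brown fat marker was. The tissue is labelled bone marrow, but outside the B lineage only Lyz2, Pecam1, Tnni2 and 2 plasma cell markers reached that level on average. B lineage markers summed to between 2002 and 2210 FPKM in WT and between 3137 and 3283 FPKM in NULL libraries, with 8 of the 9 called higher and 1 lower, and their part in the results below was not tested. In bulk RNA, fewer cells of a type and less RNA per cell cannot be told apart.

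Respiratory chain transcripts were lower in the NULL libraries across all 5 complexes. Of the 86 genes, 79 were tested, and 66 of these were called lower, 1 higher and 12 neither. Over all tested genes, 42.0% were called lower and 23.3% higher. With a log2 change of -1 or lower in addition, 10 members were called lower, against 5.99% of all tested genes. The median log2 change of the 79 was -0.73, against -0.13 for all tested genes. In 65 of the 79 every NULL library was below every WT library, and in 1 every NULL library was above (45.1% and 26.0% of all tested genes). Expressed as a percent of each gene's WT mean, the median gene stood at 94.6, 98.7 and 106.4 in the WT libraries (A, B, C) and at 64.8, 53.6 and 60.6 in the NULL libraries, so the typical member was lower in each NULL library than in any WT library. Summed over the 79 genes, the level was 11073 FPKM in WT and 6786 FPKM in NULL libraries on average.

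The size of the decrease depended on how the libraries were put on a common scale, but the median stayed below 0 in all cases. After median-of-ratios rescaling it was -0.57, with 62 members lower and 1 higher, against 32.7% lower and 31.7% higher over all tested genes, whose median was 0.0098. After quantile normalization it was -0.28, with 44 lower and 4 higher (33.1% and 28.5% of all tested genes, median -0.030). After rescaling to a common summed FPKM it was -0.44, with 15 lower and 1 higher (10.1% and 20.4%, median 0.11). It was -0.34 when small RNA genes were kept out of that sum, with 52 lower and 2 higher (20.6% and 45.2%, median 0.20). A set of 15 members was called lower on the deposited scale and under all 4 rescalings, namely Ndufa5, Ndufa12, Ndufb6, Ndufb8, Ndufc1 and Ndufc2 of complex I, Uqcrb of complex III, Cox5a, Cox7a1 and Cox7b of complex IV, the cytochrome c gene Cycs, and Atp5b, Atp5g1, Atp5g3 and Atp5k of complex V. These 15 were also all of the members called lower with a common summed FPKM. In all, 60 members lay below 0 in each of the 5 scalings. The share of all tested genes that met either condition was not computed.

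**Figure D1:**
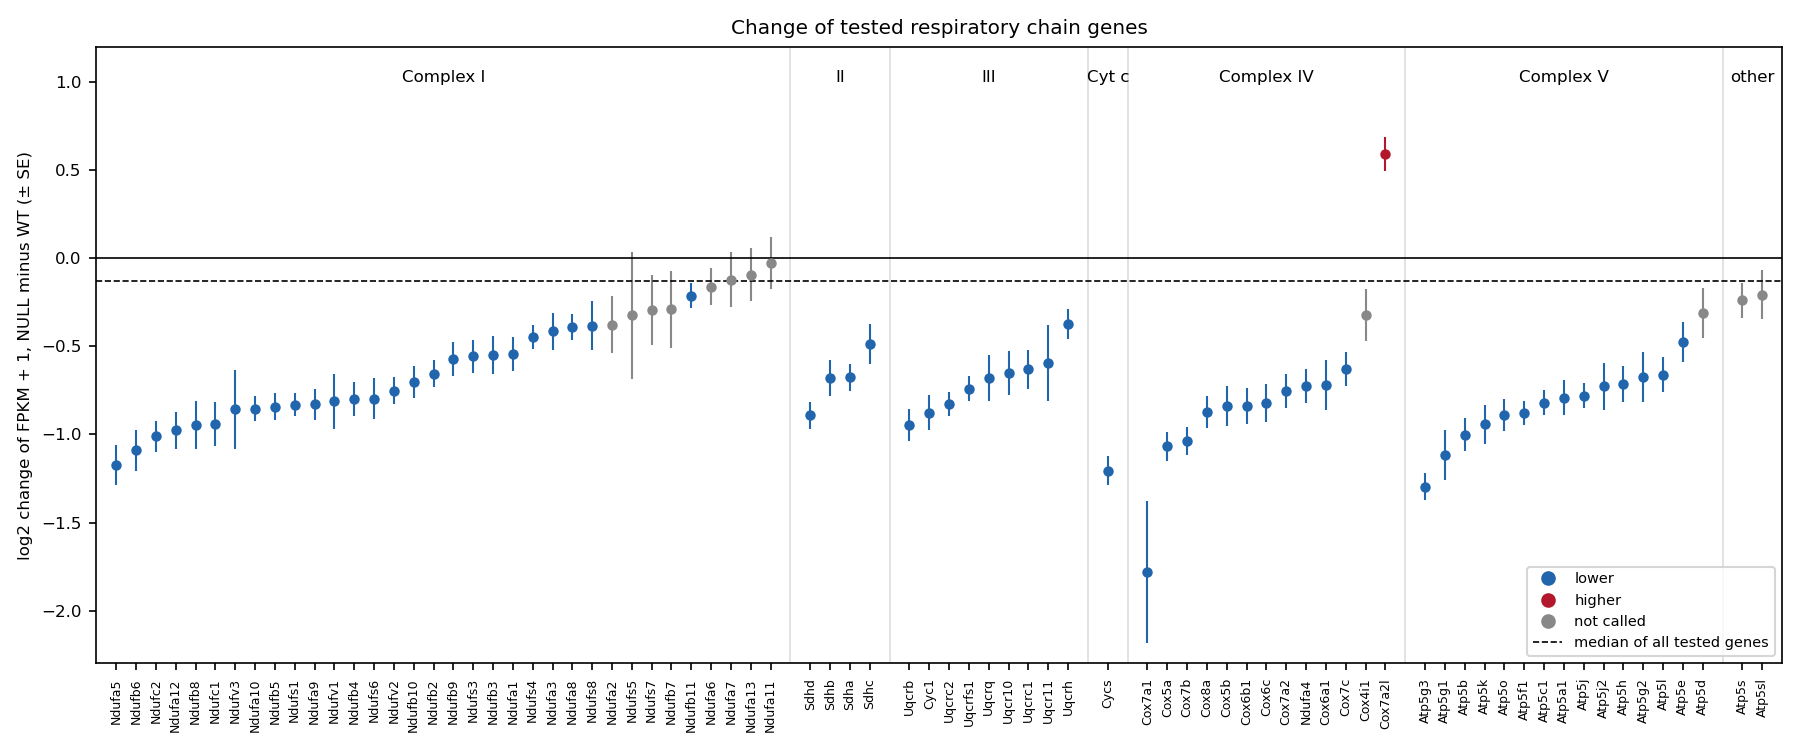
Log2 change of FPKM + 1 (NULL minus WT, ± SE from limma, n = 3 and 3 libraries) for 78 of the 79 tested genes, ordered within each complex; the dashed line marks the median of all tested genes, -0.13. The deposited scale is shown, on which 65 of the genes drawn are called lower and 12 are not called. Cox7a2l of complex IV alone is called higher. Members nearest 0, such as Ndufa11 and Ndufa13, change sign under some rescalings. Some called lower, such as Ndufa3 and Ndufs8, do so after quantile normalization.

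Promoter sequence was examined because these genes moved together. Many respiratory chain genes are known targets of NRF1 and of the ETS factor GABPA. RefSeq promoters (GRCm38.p6) matched 70 of the 86 genes, and the 250 bases before the start site were searched on both strands. The NRF1 motif (GCGC, any base, then TGCGC) stood in 12 of 70 (17.1%), against 3.87% of all 27025 promoters and 5.32% of the 17492 of coding genes. Its palindromic form, with A as the free base and contained in the first, stood in 4 of 70 (5.71%, against 0.777% and 1.06%). CCGGAAG, the core bound by GABPA, stood in 11 (15.7%, against 7.07% and 9.15%), CCAAT in 32 (45.7%, against 34.5% and 36.5%), GGGCGG, bound by SP1, in 24 (34.3%, against 33.0% and 42.7%) and AAGATGGCG, bound by YY1, in 0 (against 0.592% and 0.675%). The median change of members with the NRF1 motif was -0.72 (12 genes, from -1.17 to -0.025) and of those without it -0.73 (55 tested genes). With CCGGAAG it was -0.66 (11 genes) and without it -0.75 (56 genes), and these differences were not tested. Promoters of 6 genes are printed as examples of where the matches lie, 5 with an NRF1 match and that of Cox7a2l, which has neither motif. They were chosen with their changes known, so they say nothing of how motif and change relate. Capitals mark the matches to the NRF1 motif and CCGGAAG on either strand, and each sequence reads 5′ to 3′ on the gene's strand and ends at the base before the start site.
Cox6a1 (chr5:115348959-115349208, minus strand): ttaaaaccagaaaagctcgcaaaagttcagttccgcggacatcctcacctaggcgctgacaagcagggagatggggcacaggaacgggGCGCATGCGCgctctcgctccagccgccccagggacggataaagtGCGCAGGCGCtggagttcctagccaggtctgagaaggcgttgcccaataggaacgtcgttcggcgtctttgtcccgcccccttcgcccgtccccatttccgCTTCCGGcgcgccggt
Ndufb4 (chr16:37654369-37654618, minus strand): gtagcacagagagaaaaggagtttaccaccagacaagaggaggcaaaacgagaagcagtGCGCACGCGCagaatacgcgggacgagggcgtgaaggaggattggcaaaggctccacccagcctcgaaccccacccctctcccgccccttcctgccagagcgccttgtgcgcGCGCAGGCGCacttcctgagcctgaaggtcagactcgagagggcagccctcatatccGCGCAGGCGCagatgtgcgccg
Atp5k (chr5:108434400-108434649, minus strand): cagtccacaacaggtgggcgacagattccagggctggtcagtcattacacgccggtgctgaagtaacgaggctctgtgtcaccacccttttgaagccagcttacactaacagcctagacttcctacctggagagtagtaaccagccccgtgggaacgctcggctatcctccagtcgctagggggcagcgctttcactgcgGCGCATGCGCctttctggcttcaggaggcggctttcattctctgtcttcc
Ndufa5 (chr6:24527691-24527940, minus strand): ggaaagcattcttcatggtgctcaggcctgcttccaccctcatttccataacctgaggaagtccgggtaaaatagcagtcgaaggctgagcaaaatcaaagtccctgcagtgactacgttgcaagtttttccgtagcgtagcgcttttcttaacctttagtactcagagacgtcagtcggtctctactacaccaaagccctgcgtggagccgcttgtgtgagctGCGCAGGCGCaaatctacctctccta
Ndufa11 (chr17:56717512-56717761, plus strand): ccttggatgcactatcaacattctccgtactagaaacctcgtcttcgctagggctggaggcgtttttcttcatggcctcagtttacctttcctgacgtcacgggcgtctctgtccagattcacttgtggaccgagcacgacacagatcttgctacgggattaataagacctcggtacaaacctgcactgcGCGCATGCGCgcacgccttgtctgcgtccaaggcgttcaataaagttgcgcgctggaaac
Cox7a2l (chr17:83514334-83514583, minus strand): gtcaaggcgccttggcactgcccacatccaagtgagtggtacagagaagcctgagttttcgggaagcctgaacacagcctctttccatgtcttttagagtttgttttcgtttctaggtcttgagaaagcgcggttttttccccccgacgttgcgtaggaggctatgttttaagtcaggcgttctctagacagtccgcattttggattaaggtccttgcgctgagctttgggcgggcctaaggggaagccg
Ndufb4, a membrane arm subunit of complex I, holds 3 NRF1 matches and Cox6a1 of complex IV holds 2 with 1 CCGGAAG match. Atp5k, Ndufa5 and Ndufa11 each hold 1 NRF1 match. A match of letters is a description and not evidence of binding. The NRF1 transcript itself, Nrf1, read 21.0, 20.02 and 23.3 FPKM in WT and 17.8, 15.3 and 16.0 FPKM in NULL libraries (log2 change -0.37, called lower on the deposited scale). Gabpa read 23.0, 22.7 and 21.6 and 15.1, 15.8 and 17.1 FPKM (-0.46, called lower on that scale), while Gabpb1 was not called (0.18). With a common summed FPKM, 0 of the 12 tested regulators of chain genes, Nrf1 and Gabpa included, were called lower, and 2 were called higher. Over all tested genes, 10.1% were called lower and 20.4% higher in that scaling.

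Complex I, the NADH dehydrogenase, is the largest of the complexes, and 35 of its genes were found and tested. Of these, 27 fell, none rose and 8 were not called, with a median log2 change of -0.57 and a range from -1.17 to -0.025. The 7 nuclear genes of its catalytic core, which include those for the subunits with the flavin and the iron-sulfur clusters, counted 6 lower with a median of -0.56. The 2 accessory genes of the quinone-binding module were both lower, with a median of -1.002. Accessory genes of the NADH-binding module counted 4 lower of 7 (median -0.45), and those of the membrane arm 15 of 19 (median -0.57). Complex I counts moved with scaling: 6 genes were called lower with a common summed FPKM, and 16 lower and 3 higher (Ndufa6, Ndufa7 and Ndufb11) with quantile normalization. Ndufb11, at 71.9, 72.5 and 76.6 FPKM in WT and 68.2, 61.0 and 61.4 FPKM in NULL libraries, was thus called in opposite directions, lower on the deposited scale (-0.21) and higher after quantile normalization.

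Ndufa5, an accessory subunit of the quinone-binding module, fell furthest in complex I. It read 76.6, 74.3 and 71.3 FPKM in the WT libraries A, B and C, and 36.8, 26.8 and 34.0 FPKM in NULL A, B and C, a log2 change of -1.17 ± 0.11 (SE, adjusted p = 8.8e-05). Every NULL library was at or under 36.8 FPKM and every WT library above 71. Ndufb6, a subunit of the membrane arm, read 68.0, 69.2 and 58.4 FPKM in WT and 32.0, 25.3 and 33.4 FPKM in NULL libraries (-1.09 ± 0.12, adjusted p = 0.000138). Its groups did not overlap either. Ndufa12, an accessory subunit near the peripheral arm's iron-sulfur clusters, read 126, 131 and 140.2 FPKM in WT and 71.1, 57.1 and 73.0 FPKM in NULL libraries (-0.98 ± 0.10).

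Ndufc2, a membrane arm subunit, lies at chr7:97400003-97407800 on GRCm38, 91.05 kb beyond the end of Gab2 (chr7:97081751-97308951). It read 65.6, 60.2 and 62.8 FPKM in the WT libraries A, B and C, and 34.6, 29.5 and 28.3 FPKM in NULL A, B and C, a log2 change of -1.01 ± 0.087 (adjusted p = 5.8e-05). The groups were far apart, and the change stayed between -1.10 and -0.64 in all 24 alternatives. Whether its place beside the deleted gene bears on its level was not tested.

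Among the core genes, Ndufs1, which encodes the largest iron-sulfur subunit, read 50.3, 48.9 and 48.8 FPKM in WT and 27.8, 25.6 and 28.6 FPKM in NULL libraries (-0.83 ± 0.065). Its groups were well apart, with little spread within either.

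The 8 complex I genes that were not called were Ndufa2, Ndufa6, Ndufa7, Ndufa11, Ndufa13, Ndufb7, Ndufs5 and Ndufs7. Ndufa11, a membrane arm subunit with low levels, read 4.75, 5.12 and 6.43 FPKM in WT and 6.68, 4.56 and 4.81 FPKM in NULL libraries, and its change of -0.025 turned positive under 3 rescalings and without WT C, NULL B or NULL C. Ndufa13, also known as GRIM-19, read 25.9, 31.2 and 36.3 FPKM in WT and 33.4, 24.2 and 29.7 FPKM in NULL libraries. The groups overlapped in both genes. Ndufs5 read 35.1, 53.3 and 43.9 FPKM in WT and 65.8, 24.6 and 25.2 FPKM in NULL libraries, so that NULL A was the highest of all 6 and NULL B and C the lowest. Ndufv3, which was called lower, read 62.2, 63.7 and 113 FPKM in WT and 47.7, 37.2 and 41.3 FPKM in NULL libraries, with WT C apart from WT A and B.

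**Figure D2:**
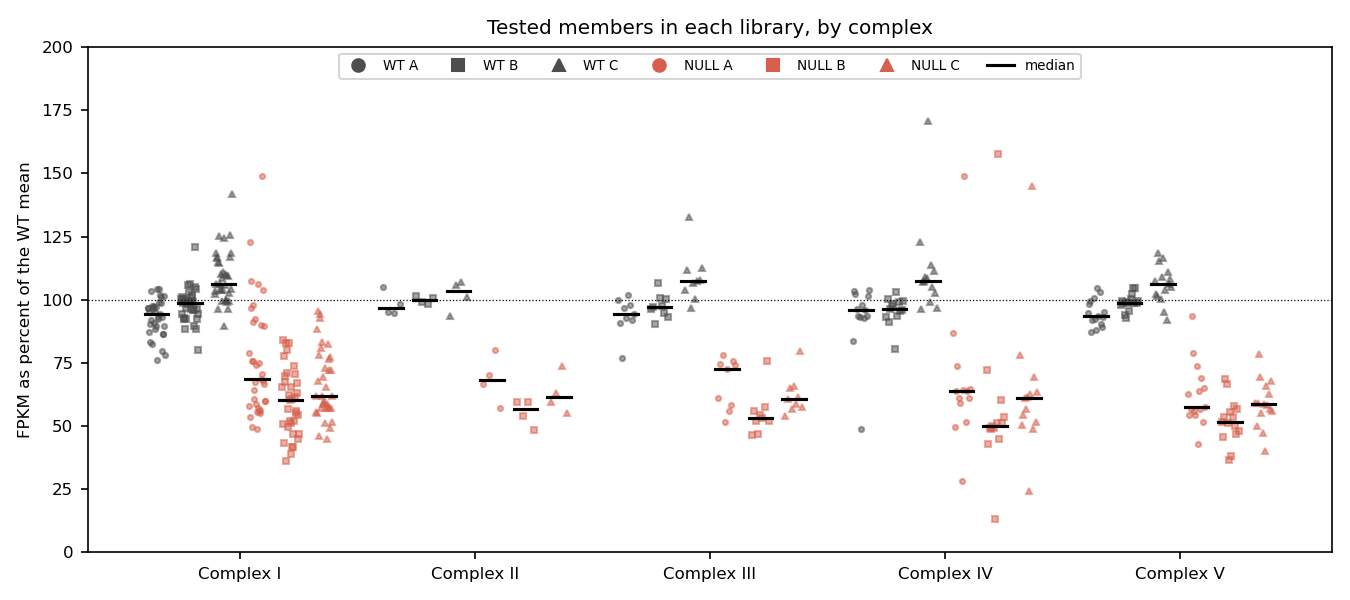
Each point is 1 tested gene in 1 library, as a percent of that gene's WT mean FPKM, grouped by complex, with bars at the library medians. Medians of the NULL libraries lie between 49.8 and 72.8 percent and those of the WT libraries between 93.7 and 107.5 percent in complexes I to V.

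Complex II, succinate dehydrogenase, belongs to both the chain and the citric acid cycle and is encoded wholly in the nucleus. All 4 of its genes fell, with a median log2 change of -0.68. The membrane anchor Sdhd read 90.8, 93.3 and 93.5 FPKM in WT and 52.8, 44.7 and 51.0 FPKM in NULL libraries (-0.89 ± 0.078, adjusted p = 6.04e-05), and the other anchor, Sdhc, read 46.1, 47.9 and 52.3 and 39.2, 29.0 and 36.0 FPKM (-0.49 ± 0.11). The groups did not overlap in either gene. The flavoprotein Sdha, which oxidises succinate, went from 56.1 ± 3.35 to 34.7 ± 2.27 FPKM (mean ± SD, n = 3 each) and the iron-sulfur subunit Sdhb from 99.5 ± 5.53 to 62.1 ± 8.07 FPKM. With a common summed FPKM none of the 4 was called, at a median of -0.40.

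Complex III, the cytochrome bc1 complex, had 9 genes, and all 9 fell with a median log2 change of -0.68. Its nuclear redox subunits are Cyc1, cytochrome c1, and Uqcrfs1, the Rieske iron-sulfur protein. Cyc1 read 49.0, 47.2 and 50.9 FPKM in WT and 30.0, 22.8 and 26.4 FPKM in NULL libraries (-0.88 ± 0.10, adjusted p = 0.000184), and Uqcrfs1 61.5, 59.6 and 67.7 and 36.7, 36.2 and 38.8 FPKM (-0.74 ± 0.071). Neither overlapped between groups. Uqcrb, a small subunit, showed the largest change of the complex, with 234, 258 and 234 FPKM in WT and 125, 114 and 138 FPKM in NULL libraries (-0.95 ± 0.093). Uqcrc2, a core protein without a redox centre, went from 101 ± 2.26 to 56.8 ± 2.77 FPKM (mean ± SD, n = 3 each).

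Uqcrh, the hinge protein that helps dock cytochrome c, was the most abundant transcript of complex III and changed least. It read 359.6, 391 and 420.3 FPKM in WT and 296, 295 and 311 FPKM in NULL libraries, a log2 change of -0.37 ± 0.087 (adjusted p = 0.00624) that became 0.097 after quantile normalization and 0.0082 with a common summed FPKM without small RNA genes. Uqcr11 read 77.5, 90.9 and 133 FPKM in WT and 78.4, 52.5 and 65.3 FPKM in NULL libraries, with NULL A above WT A. Its call (-0.59, adjusted p = 0.0404) was lost in 11 of 24 alternatives, including without WT B, WT C (-0.37), NULL B or NULL C.

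Cytochrome c, encoded by Cycs, carries electrons between complexes III and IV and triggers the apoptosome when released from mitochondria. Cycs read 58.2, 56.8 and 54.9 FPKM in the WT libraries A, B and C, and 24.1, 21.6 and 26.4 FPKM in NULL A, B and C. NULL values were under 27 FPKM and WT values above 54 FPKM, with little spread within either group. The log2 change was -1.21 ± 0.082 (adjusted p = 2.87e-05) and stayed between -1.28 and -0.84 in the 24 alternatives.

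Complex IV, cytochrome c oxidase, takes its catalytic core from the mitochondrial genome, so the nuclear genes here encode its surrounding subunits, many of which exist as tissue isoforms. Of 20 genes, 13 were tested, and 11 fell, 1 rose and 1 was not called, with a median log2 change of -0.82. The 7 genes that were not tested, Cox4i2, Cox6a2, Cox6b2, Cox7b2, Cox8b, Cox8c and Ndufa4l2, had means of at most 0.255 FPKM, and Cox8c was listed at 0 in every library. They are the isoforms known from lung, muscle, testis or low-oxygen conditions, and their widely expressed partners Cox4i1, Cox6a1, Cox6b1, Cox7b, Cox8a and Ndufa4 read between 156 and 400.4 FPKM in WT libraries on average.

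Cox5a and Cox7b fell most among the widely expressed subunits. Cox5a read 181, 175 and 168 FPKM in the WT libraries A, B and C, and 86.5, 74.6 and 87.7 FPKM in NULL A, B and C, a log2 change of -1.07 ± 0.084 (adjusted p = 4.3e-05). Cox7b read 149, 154 and 163 FPKM in WT and 80.5, 69.8 and 76.0 FPKM in NULL libraries (-1.04 ± 0.079). In both genes all NULL values were well under all WT values. Cox8a went from 242 ± 8.83 to 132 ± 13.3 FPKM, Cox6b1 from 363 ± 28.8 to 203 ± 20.5 FPKM and Cox6a1 from 176 ± 11.2 to 108 ± 21.9 FPKM (mean ± SD, n = 3 each). Ndufa4, once placed in complex I and now counted in complex IV, went from 400.4 ± 14.7 to 242 ± 24.8 FPKM. By WT mean it was the most abundant transcript of the complex, although Cox6b1 was above it in WT C.

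Cox7a1, the heart and skeletal muscle isoform of subunit 7a, had the largest change of any member, at a low level. It read 7.70, 12.8 and 27.0 FPKM in the WT libraries A, B and C, and 4.48, 2.11 and 3.85 FPKM in NULL A, B and C. The groups did not overlap, but the WT libraries ranged widely and WT C was the highest. The log2 change was -1.78 ± 0.40 (adjusted p = 0.0056) and -1.33 without WT C. Of 6 muscle markers only Tnni2 reached 1 FPKM (3.55 ± 1.35 in WT and 1.13 ± 0.481 in NULL libraries), while Ckm and Mb were listed at 0 in all libraries.

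Cox7a2l, which encodes a relative of subunit 7a found where complexes III and IV join in supercomplexes, was the only member called higher. The gene lies at chr17:83501917-83514333 on GRCm38. It read 142, 143 and 174 FPKM in the WT libraries A, B and C, and 228, 241 and 222 FPKM in NULL A, B and C, so that the lowest NULL library was above the highest WT library. The log2 change was 0.59 ± 0.10 (adjusted p = 0.00111), and it was called higher in all 24 alternatives, between 0.54 and 1.09. Its close relative Cox7a2, the widely expressed 7a isoform of complex IV, fell, with 167, 176 and 169.7 FPKM in WT and 109.9, 87.8 and 107 FPKM in NULL libraries (-0.75 ± 0.10). The ratio of Cox7a2l to Cox7a2 within each library was 0.848, 0.813 and 1.02 in WT A, B and C and 2.07, 2.75 and 2.07 in NULL A, B and C. Each gene alone separated the groups, in opposite directions, so this ratio had to separate them too and adds no further support. A factor applied to a whole library leaves this ratio as it is, while quantile normalization, under which it was not computed, need not.

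Cox4i1, the widely expressed subunit 4, was the only tested complex IV gene without a call. It read 225, 251 and 330.0 FPKM in WT and 233, 194 and 209.9 FPKM in NULL libraries, so that NULL A lay above WT A. The log2 change of -0.32 ± 0.15 (adjusted p = 0.0885) turned to 0.22 after quantile normalization and 0.058 with a common summed FPKM without small RNA genes. Annotated exons of Cox4i1 share bases with Emc8 on the opposite strand, and how the authors' counting used strand is not stated in the sources here.

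**Figure D3:**
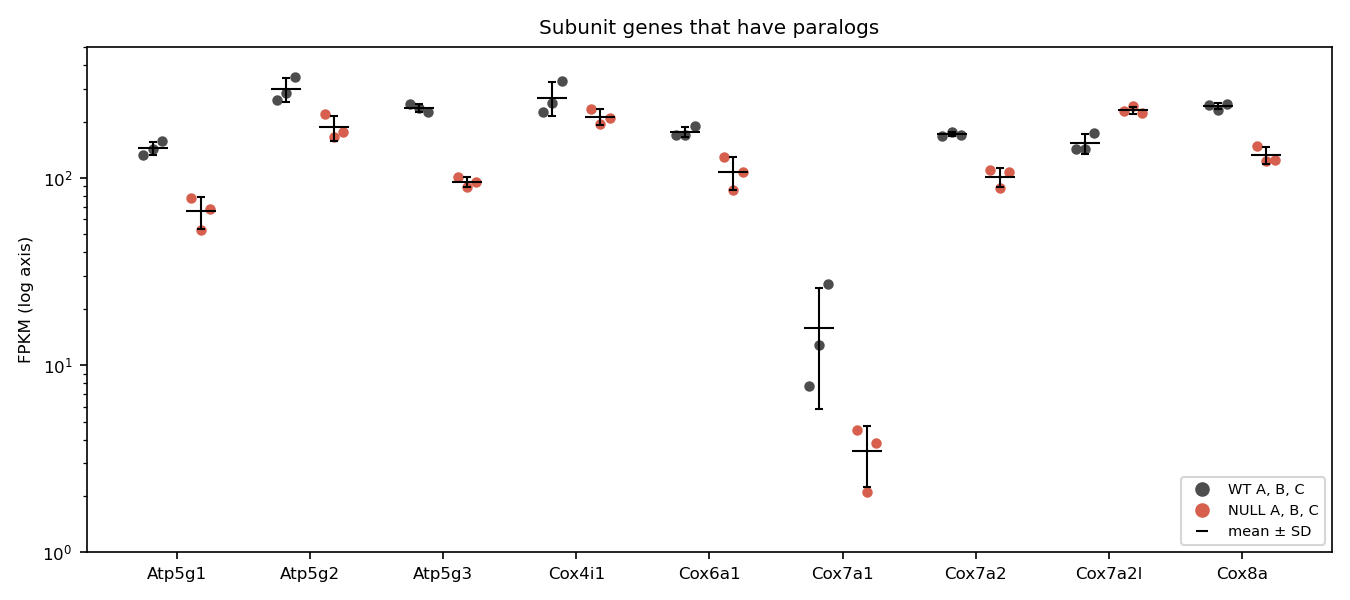
FPKM (log axis) of subunit genes that have paralogs, each point 1 library (WT dark, NULL red, in the order A, B, C), with bars at the mean ± SD. On this deposited scale Cox7a2l is the gene whose NULL points lie above its WT points, Cox4i1 overlaps between groups and changes sign under some rescalings, and Cox7a1 sits lowest of the genes drawn, with the widest WT spread among them on this axis; isoforms under the level filter are not drawn.

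Complex V, the ATP synthase, had 15 genes, of which 14 fell and 1 was not called, with a median log2 change of -0.79. Its genes Atp5b and Atp5k had the most abundant transcripts of the chain in each WT library, while in each NULL library Uqcrh of complex III came after Atp5b and above Atp5k. The catalytic beta subunit Atp5b read 644, 653 and 671 FPKM in the WT libraries A, B and C, and 358, 299.96 and 327 FPKM in NULL A, B and C (-1.0004 ± 0.092, adjusted p = 7.59e-05). The NULL mean was 50.03% of the WT mean, and the groups did not overlap. By position in the enzyme, the catalytic head and central stalk counted 4 lower of 5 (median -0.79), the peripheral stalk 4 of 4 (-0.83) and the membrane part 6 of 6 (-0.83). Atp5k, the e subunit, which helps hold enzyme dimers together, went from 481 ± 45.0 to 249.4 ± 23.8 FPKM (mean ± SD, n = 3 each).

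The small subunits of the central stalk were at the other end of the range. Atp5d, the delta subunit, read 34.6, 37.3 and 47.0 FPKM in WT and 37.0, 27.2 and 31.0 FPKM in NULL libraries (-0.31 ± 0.14, adjusted p = 0.0904, not called), and its sign turned under 2 rescalings. Atp5e, the epsilon subunit, fell from 252 ± 33.4 to 181 ± 16.0 FPKM (-0.47 ± 0.11), a change that became 0.019 after quantile normalization. Within libraries the ratio of Atp5d to Atp5b was 0.0537, 0.0571 and 0.0699 in WT A, B and C and 0.104, 0.0906 and 0.0950 in NULL A, B and C, without overlap. The pair sets the least changed complex V gene against a strongly changed gene and was picked with the values known, so this adds no further support. G and C made up 61.1% of Atp5d and 51.6% of Atp5b transcripts, and the part of this in the ratio was not tested.

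The proton-carrying c ring of complex V is built from a single mature protein that is encoded by Atp5g1, Atp5g2 and Atp5g3, which differ in their import sequences. Atp5g3 fell furthest of all complex V genes, with 247, 237 and 225 FPKM in the WT libraries A, B and C, and 102, 89.9 and 95.2 FPKM in NULL A, B and C (-1.30 ± 0.078, adjusted p = 1.88e-05). Atp5g1 read 133, 142 and 157 FPKM in WT and 78.6, 52.9 and 68.2 FPKM in NULL libraries (-1.12 ± 0.14). Atp5g2 fell less, with 261, 283 and 347 FPKM in WT and 219, 165 and 175 FPKM in NULL libraries (-0.67 ± 0.14), and its transcript has near-identical copies elsewhere in the annotation. Atp5g2 supplied 40.7, 42.8 and 47.6% of the summed FPKM of the 3 genes in WT A, B and C and 54.8, 53.5 and 51.7% in NULL A, B and C, and Atp5g3 supplied 38.5, 35.7 and 30.9% and 25.5, 29.3 and 28.1%. The share of Atp5g2 was thus higher, and that of Atp5g3 lower, in every NULL library than in any WT library, under any factor applied to a whole library. The shares were not computed under quantile normalization.

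Transcripts of the complexes kept nearly the same proportions to each other, with a smaller share for complex V. Complex V made up 36.5, 36.8 and 36.2% of the summed FPKM of all members in WT A, B and C and 33.4, 33.3 and 33.7% in NULL A, B and C. Complex I made up 23.3 ± 0.415% in WT and 24.8 ± 0.571% in NULL libraries, complex III 10.2 ± 0.139% and 10.8 ± 0.327%, and complex IV 26.7 ± 0.384% and 27.8 ± 0.226% (mean ± SD, n = 3 each), and none of these overlapped between groups. Complex II, at 2.69 ± 0.109% and 2.67 ± 0.0521%, overlapped.

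The symbols Atp5s and Atp5sl fit the naming rule but do not encode enzyme subunits. Atp5s read 3.69, 3.15 and 2.74 FPKM in WT and 2.34, 2.73 and 2.57 FPKM in NULL libraries, and Atp5sl 5.84, 7.17 and 9.37 and 6.29, 6.18 and 6.20 FPKM. Neither was called.

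Members that were not called had transcripts richer in G and C. Median GC content was 56.6% over the 12 members not called and 51.3% over the 66 called lower, and across the 79 members Spearman's rho between change and GC content was 0.35 (0.20 over all tested coding genes), against -0.083 for transcript length. These are descriptions across genes that share the same 6 libraries. In the 19 members with at least 55% GC, WT C was the highest WT library in 19 and NULL A the highest NULL library in 19, by median ratios of 1.28 and 1.27 to the mean of the other libraries of their group. Over all 2198 tested coding genes of such GC content this held in 1625 and 1844, and 25.4% of those genes were called lower, against 12 of the 19 members. Among the 28 members under 50% GC, 26 were called lower with a median of -0.82, and among all coding genes of that content 50.7% were, with a median of -0.22.

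Without WT C and NULL A together, an omission chosen after the data had been seen, 71 of the 79 members were called lower and 1 higher, with a median of -0.74, against 42.1% and 23.8% of all tested genes. No call was lost, no sign changed, and Ndufa2, Ndufs5, Ndufs7, Atp5d and Atp5s gained a call. In that comparison complex I counted 30 lower, complex II 4, complex III 9, complex IV 11 and complex V 15.

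**Figure D4:**
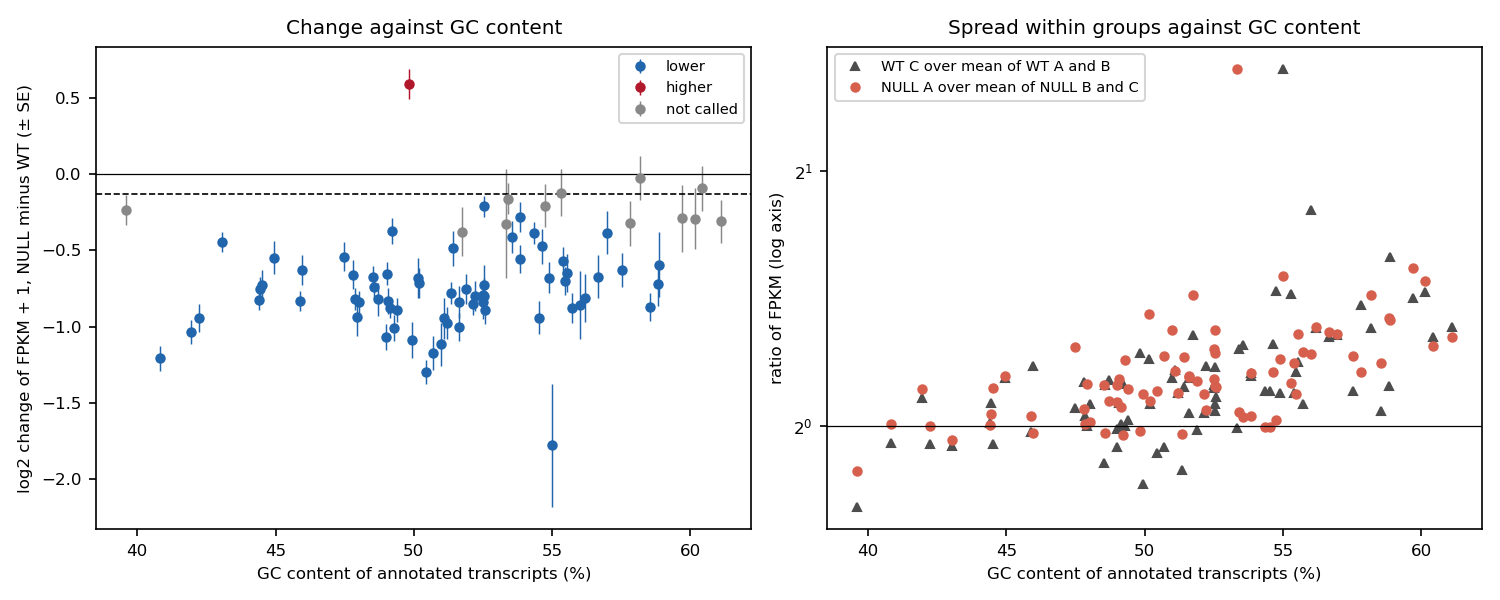
Left, log2 change (± SE) of the 79 tested members against the GC content of their annotated transcripts; right, for the same genes, FPKM of WT C over the mean of WT A and B, and of NULL A over the mean of NULL B and C (log axis). At 55% GC and above, all 19 members have both ratios above 1, with medians of 1.28 and 1.27.

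Genes that act with the chain were counted from lists that the symbol rule does not cover. Of 9 further chain and electron-transfer proteins 7 fell (median -0.79), among them Ndufab1, the acyl carrier subunit of complex I, from 30.0 ± 3.01 to 15.1 ± 0.948 FPKM (mean ± SD, n = 3 each), while the electron-transfer flavoprotein dehydrogenase Etfdh read 14.7 ± 0.671 and 14.6 ± 0.670 FPKM. Of 41 tested assembly factors of the 5 complexes 33 fell and 1 rose, with a median of -0.46 (42.0% and 23.3% of all tested genes). With a common summed FPKM 8 were lower and 1 higher (10.1% and 20.4% of all tested genes). Without small RNA genes in that sum 15 were lower and 7 higher, with a median of -0.13 (20.6% and 45.2% of all tested genes). Lrpprc, which stabilises mitochondrial messenger RNA, fell from 41.6 ± 0.998 to 19.8 ± 1.80 FPKM and the complex I factor Ndufaf4 from 12.03 ± 0.945 to 5.47 ± 0.572 FPKM, whereas Ndufaf3 rose from 6.34 ± 0.722 to 8.47 ± 1.18 FPKM, a call lost in 6 of 24 alternatives. Complex IV factors counted 14 lower of 19, at a median of -0.33 that was 0.012 with a common summed FPKM without small RNA genes. Surf1, a complex IV factor mutated in Leigh syndrome, read 14.2 ± 0.801 and 13.8 ± 0.116 FPKM.

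Regulators of chain genes, like all tested genes, moved in both directions. Of 12 tested, 7 fell and 2 rose, against 42.0% and 23.3% of all tested genes. Their median was -0.26, and it was 0.0063 and 0.10 with a common summed FPKM with and without small RNA genes. The mitochondrial transcription factor Tfam read 19.8, 19.2 and 20.1 FPKM in WT and 12.4, 12.6 and 12.9 FPKM in NULL libraries (-0.60, called lower on the deposited scale), and Tfb1m fell from 8.77 ± 0.322 to 5.56 ± 0.470 FPKM. The orphan receptor Esrra, an activator of oxidative genes, read 1.95, 2.39 and 3.00 FPKM in WT and 5.88, 4.25 and 4.88 FPKM in NULL libraries (0.80, called higher in the 23 alternatives that tested it). Its direction was thus opposite to that of the chain genes. The coactivators Ppargc1a and Ppargc1b were under the level filter.

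On the deposited scale most genes of the other mitochondrial lists were called lower too, against 42.0% of all tested genes. Of 17 citric acid cycle genes 16 fell (median -0.70), with Suclg2, a succinyl-CoA ligase subunit, going from 32.1 ± 1.33 to 11.5 ± 0.704 FPKM. Of 25 protein import genes 22 fell and 1 rose (median -0.79), and Timm8a1, a chaperone of the intermembrane space, went from 62.2 ± 4.09 to 19.2 ± 1.13 FPKM. All 7 nucleotide and phosphate carriers and porins fell (median -0.86), including the ADP/ATP carrier Slc25a5, from 435 ± 11.8 to 203 ± 23.3 FPKM. Of 76 mitochondrial ribosomal protein genes 70 fell (median -0.71). The medians of these 4 lists stayed below 0 under the 4 rescalings, but the counts moved. With a common summed FPKM, 3 of 17 citric acid cycle and 12 of 25 import genes were called lower. In that scaling 2 of 7 carriers and porins and 17 of 76 mitochondrial ribosomal protein genes were, against 10.1% of all tested genes.

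Glycolysis genes, which supply ATP without the chain, had a lower median than the respiratory chain genes. Of 16 tested, 13 fell and 2 rose, with a median of -1.42 on the deposited scale and between -1.26 and -1.01 after rescaling. WT C stood apart: the median gene was at 74.8, 79.2 and 144.2% of its WT mean in WT A, B and C. In NULL A, B and C it was at 41.1, 31.1 and 35.1%. Without WT C and NULL A the median change was -1.19. Lactate dehydrogenase A, Ldha, read 558, 598 and 1096 FPKM in WT and 183, 141 and 175 FPKM in NULL libraries (-2.11 ± 0.25), with WT C apart from WT A and B, and -1.80 without WT C. Hexokinase 1, Hk1, rose from 8.20 ± 1.13 to 20.8 ± 1.65 FPKM and Ldhb from 1.38 ± 0.0928 to 5.05 ± 0.314 FPKM. The difference between the glycolysis and the respiratory chain lists was not tested.

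**Figure D5:**
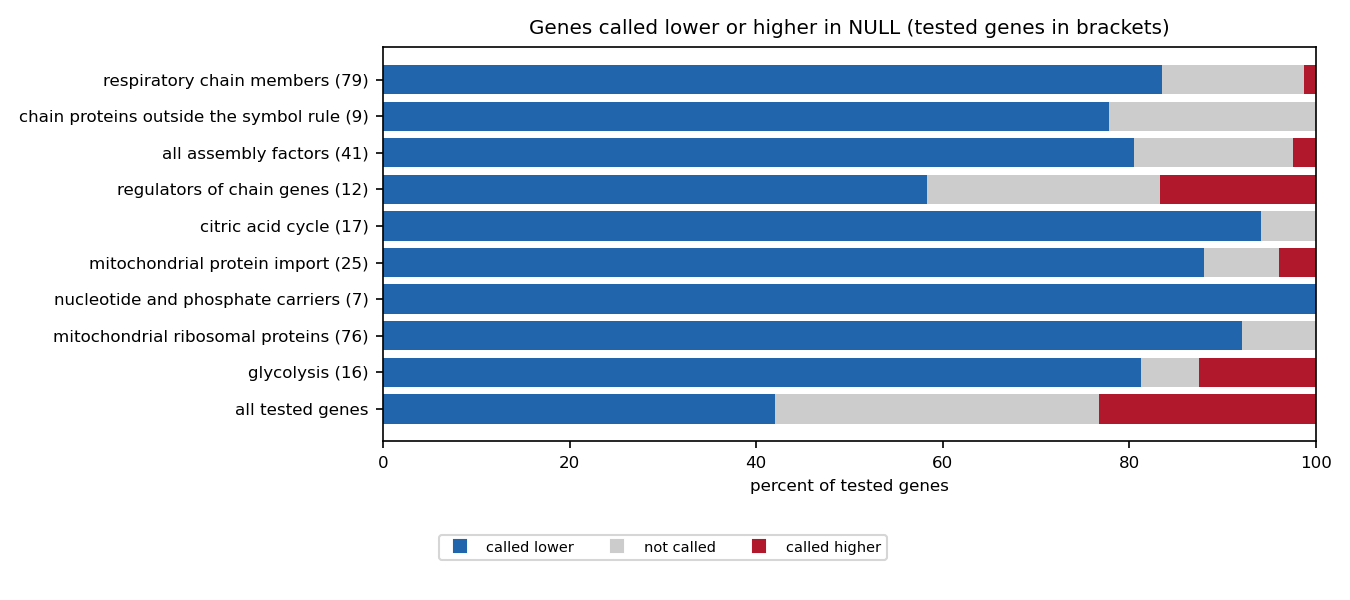
Percent of tested genes called lower, not called or called higher in NULL libraries on the deposited scale, for the respiratory chain members and the other lists, with the number of tested genes in brackets. The bottom bar gives all 9916 tested genes (42.0% lower, 23.3% higher), against which 66 of 79 members, 70 of 76 mitochondrial ribosomal protein genes and 7 of 12 regulators are lower; the balance of the regulators turns under some rescalings.

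Fragment numbers behind these values were estimated from the files. In its shallowest library the median tested member rested on about 986 fragments, the lowest on about 14.2, and 3.8% of members on fewer than 100. Among the tested members 8 have a near-identical copy in the annotation (Atp5g2, Atp5h, Atp5k, Atp5l, Atp5o, Ndufb11, Ndufs3 and Uqcrb), 24 share exon bases with a gene on the opposite strand, and 5 (Atp5g2, Atp5o, Ndufb2, Ndufb8 and Ndufb9) share them with a gene on the same strand, which a stranded library does not resolve, so reads of these could have been split or shared.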

How the data were processed

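RNA of 6 mouse bone marrow libraries (3 WT, 3 NULL, groups and letters from the sample titles) was made into stranded polyadenylated libraries and read as paired ends, per the labels' protocols. The authors deposited FPKM per gene symbol. The submitters' processing notes list Bowtie, Cufflinks, mm10 and GRCm38, while their roles, the annotation and the counting options are not stated in the sources here. The table has 23848 rows, and for 256 repeated symbols only the highest row by mean was used (no member was repeated). FPKM are not counts, so log2(FPKM + 1) was tested for genes averaging 1 FPKM or more, with limma 3.58.1 in R 4.3.3 (mean-variance trend, two-sided, Benjamini-Hochberg over 9916 genes, threshold 0.05, no covariate), a procedure tested on simulated data. Changes on this scale understate those of low genes. Depth was estimated from the steps among low FPKM values and supports no counting interval.

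The members and lists were chosen with earlier results of these data known. Described in full were called members that changed by 1 or more on the log2 scale, the largest and smallest changes in each complex, and isoform families. Ndufs1, Ndufs5, Ndufv3, Nrf1, Gabpa, Etfdh, Surf1 and the within-library ratios were chosen after their values were seen. The values of 1 tested member are not reported here by name, in the text or in the plot of members' changes, while counts, medians and the other plots include it. Positions and promoters are RefSeq (GRCm38.p6), and GC content and overlaps GENCODE vM21, to which all 86 members matched. Alternatives were other pseudocounts, filters, rescalings, limma settings and thresholds, a replicate block, and leaving out libraries.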

Additional observations from a re-analysis of the deposited data

How the results depend on the processing

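The count of members called lower, 66 as reported, depended mainly on the scaling between libraries. After rescaling to a common summed FPKM it was 15 (complex I 6, II 0, III 1, IV 3, V 4), while the share called lower over all tested genes went from 42.0% to 10.1%. In that scaling small RNA genes hold as little as 6.06% (WT A) and as much as 31.5% (WT C) of the sum. After quantile normalization complex I counted 16 lower and 3 higher and complex V 9 lower, with 4 members higher in all. With a common summed FPKM without small RNA genes complex I counted 17 lower and 1 higher, and 2 members were higher in all. The cause of these differences was not tested. Signs turned for 14 members after quantile normalization and for 6 with a common summed FPKM. They turned for 15 members without small RNA genes in that sum, and for 3 after median-of-ratios rescaling. Ndufa3 and Ndufs8, both called lower on the deposited scale, were above 0 after quantile normalization. Among the members that turned, Ndufa11 was at 0.21 (common summed FPKM), 0.30 (without small RNA genes) and 0.11 (median-of-ratios). Over the omissions of 1 library Ndufa11 lay between -0.17 and 0.083. Ndufa13 was at 0.22 (quantile), 0.18 (common summed FPKM), 0.28 (without small RNA genes) and 0.060 (median-of-ratios). Over the omissions Ndufa13 lay between -0.22 and 0.030. Uqcrh was at 0.097 (quantile) and 0.0082 (common summed FPKM without small RNA genes). Under the same 2 scalings Cox4i1 was at 0.22 and 0.058, and Atp5d at 0.018 and 0.063. Atp5e was at 0.019 (quantile). Without WT C or NULL B, Ndufa11 and Ndufa13 were above 0, and Ndufa11 also without NULL C. Leaving out 1 library at a time gave between 62 and 69 members lower and 1 higher. Over all tested genes these omissions gave between 37.9% and 41.1% lower. In each omission 63 members were called in the same direction, and the like share of all tested genes was not computed.

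The replicate letters were not treated as pairs, since they are not said to mark animals, litters or days. Deviations of libraries with the same letter correlated at 0.073, 0.36 and 0.13 for A, B and C, and each library correlated best with its own letter. Whether the letters mark a shared batch or pair cannot be told from the labels. With the letter as a replicate block, 63 members were called lower and 1 higher, and 3 members lost their calls. Other pseudocounts and filters with a minimum, summed rows of a symbol, no trend and leaving out small RNA genes changed no member's call, and no filter lost 3.

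Estimated fragment numbers were computed for the tested members only, so whether depth limits the 7 untested genes, with means of at most 0.255 FPKM, was not tested.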
